A study of Mus musculus with 2 samples.

Results

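The genes described here are 35 mouse genes of the DNA damage response, taken by symbol from a fixed list that spans homologous recombination, the sensing of broken ends, the Fanconi anaemia pathway, mismatch repair, end joining, the repair of single-strand breaks and checkpoint signalling. All 35 were found, among 21474 protein-coding genes in the tables. They were measured in total RNA of ES-E14, an embryonic stem cell line from a male mouse embryo of strain 129/Ola, with no treatment, genotype or time given beside this. The series held 1 group of 2 libraries, labelled replicates 1 and 2. Both carry the same source sample in the labels, which leaves a spread that may only be technical, and no comparison between conditions was possible. Levels are in TPM, each gene's share of all transcripts after correction for length, and errors are the SD over n = 2 libraries. Values of single libraries are given in the order replicate 1, replicate 2.

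Depth was 43163300 and 45573512 expected counts over all genes, and single members held from 109 to 14385 counts in replicate 1 and from 146 to 17249 in replicate 2. All 7 embryonic stem cell markers tested were at 1 TPM or more in both libraries, with Pou5f1 at 162.43 and 201.07 TPM. Of 10 feeder fibroblast markers 6 were at 1 TPM or more in both and the median was 1.74 and 9.92 TPM. Of the 10, 7 were higher in replicate 2, among them Col1a1 at 7.21 and 28.84 TPM. Fn1, at 154.13 and 122.22 TPM, and Thy1, at 2.27 and 1.62 TPM, were lower in replicate 2. Lum had 0 counts in both libraries. Of 7 blood and endothelium markers 3 were at 1 TPM or more in both. These were Pecam1 at 23.63 and 22.04 TPM, Cd68 at 6.14 and 5.3 TPM and Tek at 2.93 and 2.19 TPM. The others, among them Ptprc at 0.0 and 0.12 TPM, were under 1 TPM in at least 1 library. In such bulk RNA, fewer cells of a type and less RNA per cell cannot be told apart.

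Breaks through both strands of DNA are repaired by homologous recombination, which copies an intact sister molecule, or by end joining, which ligates the ends directly. The Fanconi proteins free DNA from crosslinks between strands, mismatch repair corrects replication errors, and the kinases ATM and ATR halt the cell cycle while repair proceeds. Mouse embryonic stem cells divide rapidly with a short first gap phase, and are known to rely strongly on homologous recombination.

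Nearly all members were expressed, most of them at moderate levels. In both libraries 34 of 35 stood at 1 TPM or more, against 46.3% of all protein-coding genes. The exception was Lig4, at 0.74 and 1.45 TPM. Rescaled to protein-coding genes outside the mitochondrial genome alone, levels were higher, with Lig4 at 3.97 and 6.33 and Parp1 at 305 and 270. On that scale all 35 members stood at 1 or more, and Parp1 was higher in replicate 1. The median member had 5.73 and 6.47 TPM. The median of all protein-coding genes was 0.76 and 0.94 TPM, and that of the protein-coding genes that reached 1 TPM in each library was 5.76 and 6.81 TPM. The members thus lay around the middle of the expressed genes, with 17 and 16 of them above its median. In each library 21 members lay from 3 to 10 TPM and 7 at 10 TPM or more.

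**Figure D1:**
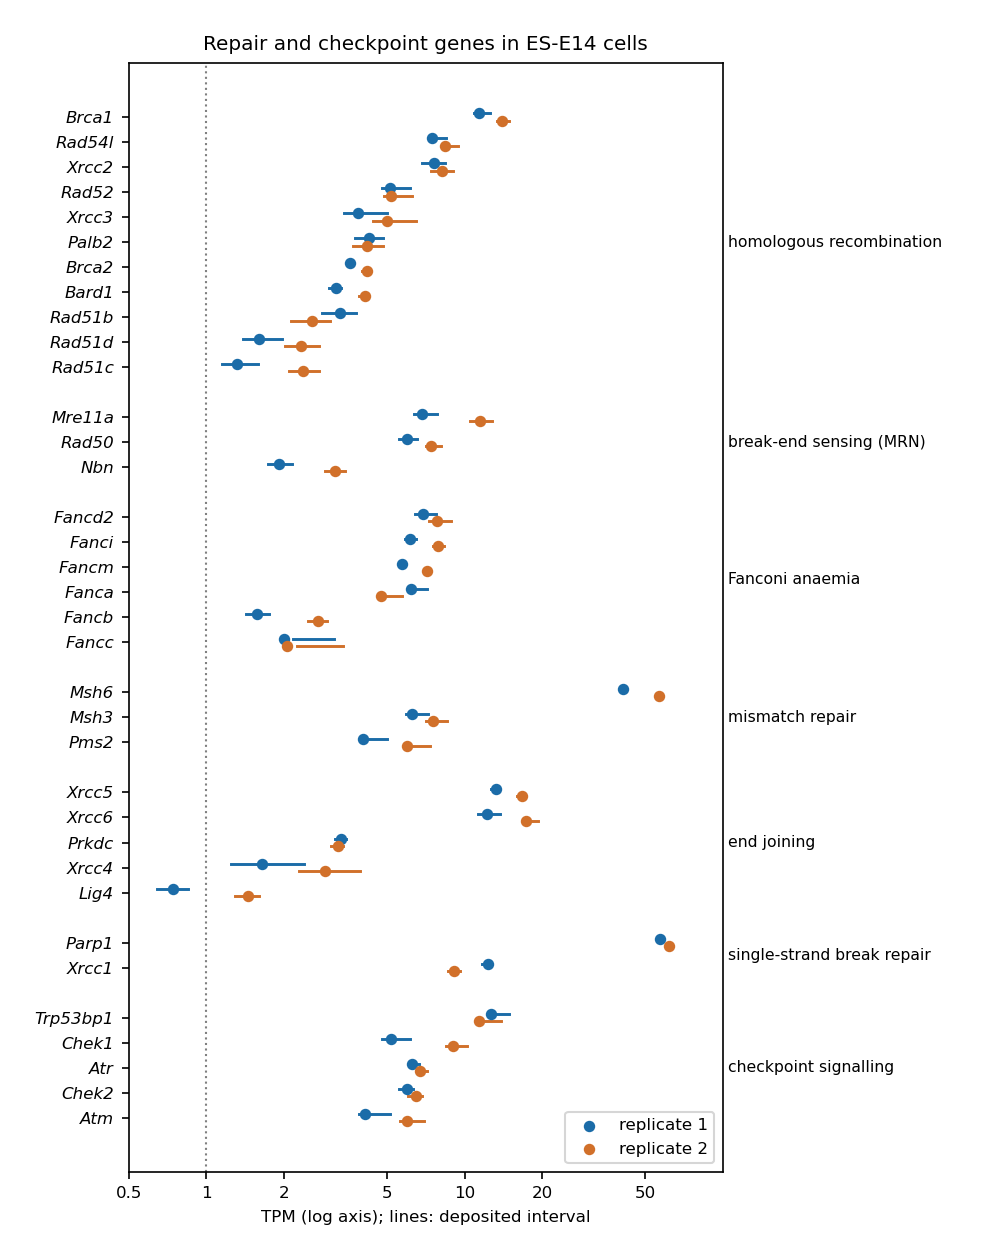
TPM of the 35 genes on a log axis, grouped by repair class and ordered by mean within each class. Points are single libraries, lines the interval that the authors deposited with each value, and the dotted line marks 1 TPM. Parp1 and Msh6 stand apart at the right, and Lig4 is the 1 gene with a library under 1 TPM.

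Parp1 and Msh6 stood far above the rest. Parp1 (ENSMUSG00000026496; mm10 chromosome 1, 180568924 to 180601254), which encodes the polymerase that marks broken DNA with poly(ADP-ribose), was at 56.91 and 61.91 TPM. Msh6 (ENSMUSG00000005370; chromosome 17, 87975062 to 87990892), a subunit of the complex that recognizes mismatched bases, was at 41.27 and 56.89 TPM. Together they took 34.8% and 35.2% of the summed TPM of all members. They were at percentiles 97.6 and 97.0 of all protein-coding genes. The lower library of Msh6 was above the higher library of every gene ranked after it.

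Below these, the order was a continuum. In 32 of the 34 neighbouring pairs the ranges of the libraries overlapped, so the order of those neighbours was not resolved. The breaks in the order were those below Parp1, which rested on a gap of 56.91 to 56.89 TPM, and below Msh6. The order by reads, which also grows with length, differed: Brca2, with an effective length of 10567.8 and 10564.35 bases, was 6th by counts but 25th by TPM, and Prkdc was 9th by counts but 27th by TPM.

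Homologous recombination held 11 members, with a median of 3.85 and 4.19 TPM. Brca1, the ubiquitin ligase subunit that promotes resection and strand invasion, led the class at 11.41 and 13.92 TPM (12.7 ± 1.77 TPM, SD, n = 2). Its partner Bard1 stood at 3.17 and 4.11 TPM, or 0.278 and 0.295 of the level of Brca1. Brca2, which loads the recombinase on single-stranded DNA, stood at 3.61 and 4.19 TPM. Palb2, which bridges BRCA1 and BRCA2, stood at 4.26 and 4.18 TPM. The ratio of Brca2 to Palb2 was 0.847 and 1.00, and their ranges overlapped.

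Among the paralogues of the recombinase, Xrcc2 was highest at 7.63 and 8.18 TPM. Xrcc3 followed at 3.85 and 4.99 TPM, then Rad51b at 3.30 and 2.56 TPM. Rad51d, at 1.60 and 2.32 TPM, and Rad51c, at 1.31 and 2.36 TPM, were the lowest, and their ranges overlapped. RAD51C is the subunit that both paralogue complexes share, and its gene was at the lowest mean level of these paralogues, 1.83 ± 0.742 TPM. The translocase gene Rad54l stood at 7.46 and 8.39 TPM, and the annealing factor gene Rad52 at 5.15 and 5.18 TPM, the closest pair of values among all members.

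Of the MRN complex, which binds and trims broken ends, Mre11a, the nuclease gene, stood at 6.84 and 11.43 TPM. Rad50, its ATPase partner, was at 5.98 and 7.44 TPM. Nbn, the adaptor that recruits ATM, was lower at 1.91 and 3.14 TPM, or 0.319 and 0.422 of the level of Rad50. Both libraries of Nbn were below both libraries of the other two genes.

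The 6 Fanconi members had a median of 5.95 and 5.96 TPM. Fancd2 and Fanci, whose products form the clamp that is ubiquitinated at crosslinks, stood at 6.89 and 7.82 TPM and at 6.17 and 7.91 TPM. Their ratio, Fanci over Fancd2, was 0.896 and 1.01. Fancm, the translocase gene that anchors the core complex, was at 5.73 and 7.17 TPM, and the core complex gene Fanca at 6.20 and 4.76 TPM. Core complex genes Fancb, on the X chromosome, and Fancc were lower, at 1.57 and 2.70 TPM and at 2.00 and 2.06 TPM. The value of Fancc lay below its own deposited interval in both libraries, 2.17 to 3.13 and 2.25 to 3.38 TPM.

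In mismatch repair the partners of Msh6 were far lower. Msh3, the alternative subunit that directs the complex to longer loops, stood at 6.27 and 7.53 TPM, and the nicking endonuclease gene Pms2 at 4.03 and 5.99 TPM. Msh6 was 6.58 and 7.56 times as high as Msh3. In the annotation 18 members share exon bases with another gene, 3 of them on the same strand, and no label or header gives the strand setting of the counting. The same share over all genes was not computed. On the opposite strand, Fanci shares 921 bases with Polg, at 45.5 and 37.47 TPM. Trp53bp1 shares 2130 with Tubgcp4, at 9.0 and 9.37 TPM, and Rad54l 1184 with Lrrc41, at 6.19 and 9.63 TPM. Whether reads of such neighbours entered the levels of the members was not tested. Pms2 shares 394 exonic bases on its own strand with the gene model Gm42421, for which no level was available. It shares 85 with Rsph10b, at 0.05 and 0.03 TPM. The counts of Pms2 were fractional, so its level is uncertain.

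End joining held both high and low genes. Xrcc5 and Xrcc6, which encode the Ku ring that binds broken ends, stood at 13.27 and 16.66 TPM and at 12.19 and 17.30 TPM. The ratio of Xrcc6 to Xrcc5 was 0.919 and 1.04, so neither was higher in both libraries. Prkdc, the DNA-dependent kinase that docks on Ku, was at 3.32 and 3.22 TPM. The genes that act after them were lower: Xrcc4, the scaffold of the ligase, stood at 1.64 and 2.88 TPM, and the ligase gene Lig4 (ENSMUSG00000049717; chromosome 8, 9969049 to 9977686) at 0.74 and 1.45 TPM. Lig4 was the lowest of the 35 members in each library, with 218 and 397 counts and deposited intervals of 0.641 to 0.848 and 1.29 to 1.60 TPM. It was at 0.451 and 0.503 of the level of Xrcc4.

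Xrcc1, the scaffold of single-strand break repair, stood at 12.35 and 9.13 TPM. Parp1 was 4.61 and 6.78 times as high. Of the checkpoint genes, Trp53bp1, whose product shields ends from resection, was highest at 12.69 and 11.33 TPM. The kinase genes Atr and Chek1, which answer stalled forks, stood at 6.27 and 6.73 TPM and at 5.17 and 9.04 TPM. The kinase genes Atm and Chek2, which answer breaks through both strands, stood at 4.13 and 5.98 TPM and at 5.99 and 6.47 TPM. Chek1 was below Atr in replicate 1 and above it in replicate 2, and the ranges of Chek1 and Chek2 overlapped.

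Set side by side, the class medians were 34.6 and 35.5 TPM for single-strand break repair (2 genes), 6.27 and 7.53 for mismatch repair (3 genes), 5.99 and 6.73 for checkpoint signalling (5 genes) and 5.98 and 7.44 for MRN (3 genes). They were 5.95 and 5.96 for Fanconi genes, 3.85 and 4.19 for homologous recombination and 3.32 and 3.22 for end joining (5 genes). Single-strand break repair stood highest and end joining lowest in both libraries, but each class mixed high and low genes. On the log2 scale, relative to the median of all members, end joining stood at -0.90 ± 0.155 and mismatch repair at 0.17 ± 0.0629 (SD, n = 2). Both turned with the choice of genes or transcripts: end joining stood at 0.50 without Lig4, and mismatch repair at -1.24 when transcripts of the protein-coding biotype alone were summed. MRN, at 0.13, stood at -0.13 by the mean of log2(TPM + 1). The Fanconi class, at -0.03, stood at 0.10 by protein-coding transcripts, and had opposite signs in the single libraries. Genes of a class are not replicates, and no test was made between classes.

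The level of a gene did not give that of its protein-coding transcripts. The annotation lists several transcripts for 28 members, and in these the protein-coding biotype made up a median of 69.0% and 74.0% of the TPM. Over all 7431 expressed protein-coding genes with several transcripts the median was 81.7% and 85.5%. Short transcripts weigh more in TPM than in reads: over all 35 members the protein-coding share had a median of 78.3% and 82.8% of the TPM but 94.2% and 96.2% of the counts. Nearly all other transcripts were of 3 kinds, those that retain an intron, those annotated for nonsense-mediated decay, which destroys messages with an early stop, and processed transcripts with no reading frame. Transcripts not matched to the annotation took 2.14% of Chek1 output in replicate 1. The biotypes are those of GENCODE M21, while the deposited values rest on M4. Transcripts may have changed biotype between these releases, which was not tested.

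**Figure D2:**
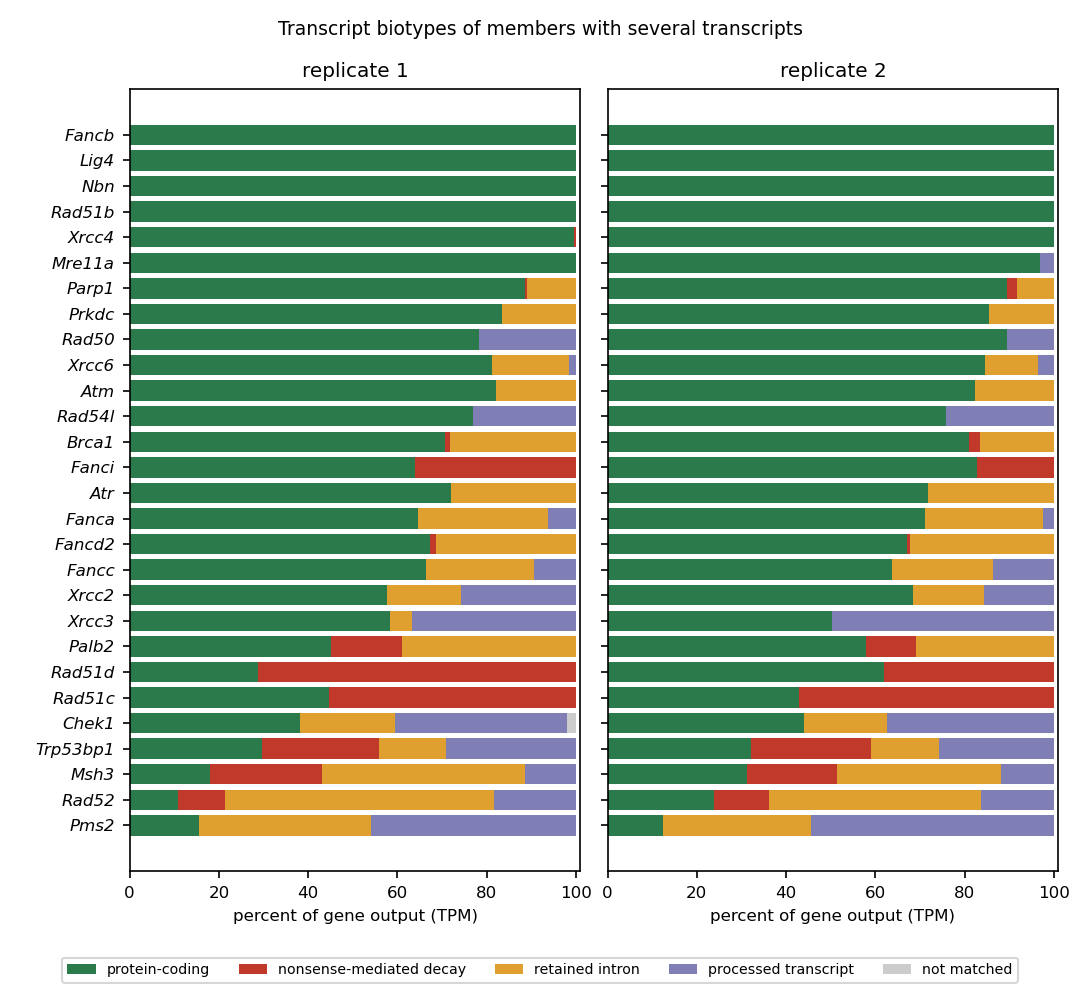
Share of each gene's output, in percent of TPM, by the biotype of its transcripts, for the 28 members with several transcripts, with replicate 1 left and replicate 2 right. Rad52, Pms2 and Msh3 have the smallest protein-coding shares in both libraries, and Fancb, Lig4, Nbn and Rad51b have a full share.

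In 6 members the protein-coding biotype gave under 50% of the TPM in both libraries (11.6% of the 7431 genes did so). For Pms2 it gave 15.49% and 12.47%, for Rad52 10.94% and 23.86%, and for Msh3 17.93% and 31.29%. Retained introns took 60.31% and 47.34% of Rad52 and 45.55% and 36.65% of Msh3. For Trp53bp1 the protein-coding share was 29.73% and 32.14%, for Chek1 38.20% and 44.04%, and for Rad51c 44.65% and 42.91%. By counts 4 members were under 50% in both libraries (5.6% of the genes), since the protein-coding share was 53.4% and 55.2% for Trp53bp1 and 60.2% and 60.0% for Chek1. The 6 by TPM were genes of recombination, mismatch repair and the checkpoint. None of them belonged to the Fanconi, MRN, end joining or single-strand break classes. The 4 by counts were Rad51c, Rad52, Msh3 and Pms2, with no checkpoint gene.

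By the mean of both libraries, the most abundant transcript was not protein-coding in 7 of the 28 members (10.1% of the 7431 genes). The count was 7 in replicate 1 alone (12.1% of the genes) and 4 in replicate 2 alone (9.07%). For Rad51c it was Rad51c-204, annotated for nonsense-mediated decay, with 52.2 ± 4.38% of output (SD, n = 2), against 36.8 ± 3.21% for the protein-coding Rad51c-201. For Trp53bp1 it was Trp53bp1-216, of 18 exons and also annotated for decay, with 24.2 ± 0.552%, followed by the processed transcript Trp53bp1-210 with 14.5 ± 2.83%. Trp53bp1-202, of 28 exons and named after its values were seen, took 11.8 ± 0.113%. For Msh3 it was Msh3-214, of 8 exons, annotated for decay, with 16.1 ± 5.72%, followed by the intron-retaining Msh3-208 with 14.1 ± 0.552%. Msh3-202, of 24 exons and likewise named after its values were seen, took 13.1 ± 3.91%. For Chek1 it was the processed transcript Chek1-207 with 26.6 ± 3.75%, followed by Chek1-206 with 19.9 ± 1.88%. The others were Rad51d-205, Rad52-213 and Pms2-201. The leading transcript was the same in both libraries in 24 of the 28, or 85.7%, and in 86.2% of the 7431 genes. It differed for Pms2, and for Msh3, Rad51d and Rad52, whose leading transcript in replicate 2 was protein-coding.

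Summing protein-coding transcripts alone left 30 of 35 members at 1 TPM or more in both libraries. Rad51c was then at 0.58 and 1.01 TPM, Rad51d at 0.46 and 1.44 TPM, Rad52 at 0.56 and 1.23 TPM and Pms2 at 0.62 and 0.75 TPM, beside Lig4 at 0.73 and 1.45 TPM. Msh6, with 1 listed transcript, could lose nothing by this choice, so its ratio to Msh3 could not fall. The ratio stood at 36.5 and 24.2. Brca2, with 1 listed transcript, stood at 1.88 and 1.72 times the protein-coding level of Palb2. Trp53bp1 was 18th in this order, against 6th by all transcripts. Parp1-201, with 84.8 ± 1.56% of Parp1 output, Prkdc-201, of 86 exons, with 84.4 ± 1.42%, Atm-201 with 80.8 ± 1.03% and Brca1-201 with 75.2 ± 6.99% led their genes in both libraries. Transcript shares are estimates from reads shared between overlapping transcripts, and total RNA also holds unspliced RNA, whose part in the intron-retaining share was not tested.

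Many members lie head to head with another gene. For 16 of 35, or 45.7%, another protein-coding gene started within 1000 bases on the opposite strand and ran away from it, with up to 300 bases of overlap allowed. This was so for 8.71% of all protein-coding genes in the tables and for 14.5% of those at 1 TPM or more in both libraries. The pairs came from all 7 classes and 6 were in homologous recombination, where Brca1 lies beside the autophagy receptor gene Nbr1, Palb2 beside Dctn5, Rad51b beside Zfyve26, Rad51c beside Tex14, Xrcc3 beside Zfyve21 and Rad54l beside Pomgnt1.

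**Figure D3:**
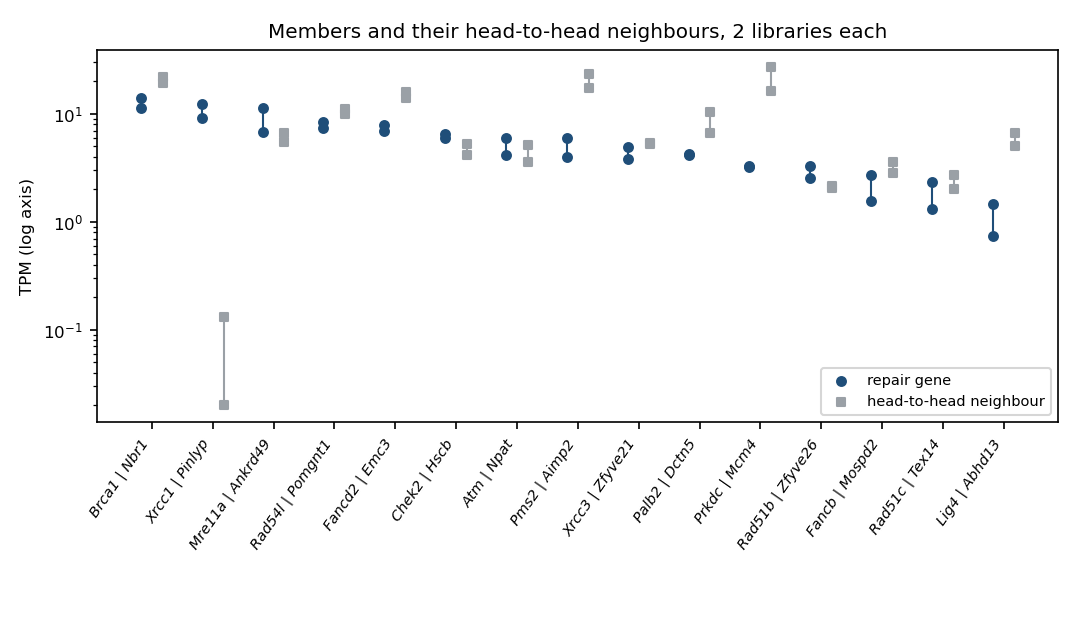
TPM on a log axis of 15 of the 16 members with a head-to-head protein-coding neighbour, each at the left of its pair, with the neighbour at the right. Each point is a library, and lines join the 2 libraries. Pinlyp, beside Xrcc1, is under 0.2 TPM, and the other 14 neighbours shown are above 1 TPM in both libraries.

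The levels within a pair were alike in some and far apart in others. Atm stood at 4.13 and 5.98 TPM, and Npat, the coactivator of histone genes that starts 307 bases away, at 3.60 and 5.18 TPM, so that Atm was 1.15 times as high in each library. Rad54l was at 0.754 and 0.751 of the level of Pomgnt1, and Fancd2 at 0.491 and 0.485 of that of Emc3, which starts 30 bases away. Prkdc, at 3.32 and 3.22 TPM, was at 0.202 and 0.119 of the level of the replication helicase gene Mcm4 at 16.44 and 27.06 TPM. Lig4 was at 0.146 and 0.220 of Abhd13, 21 bases away, at 5.06 and 6.59 TPM. Xrcc1, at 12.35 and 9.13 TPM, stood beside Pinlyp at 0.13 and 0.02 TPM.

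The DNA between the annotated starts is given for all 8 pairs whose stretch lay whole inside a listed promoter window. That window need not be the one of the repair gene, and for Rad51c it was not. In the annotation both genes start from its ends. It is from RefSeq (GRCm38, the assembly of mm10), on the strand of the repair gene, with the bases between both annotated first bases. Capitals mark matches to 5 short promoter motifs searched on both strands: CCAAT for the CCAAT box, CCGGAAG for the ETS site, GGGCGG for the GC box, the NRF1 site, and TTTCCCGC, TTTGGCGC or TTTCGCGC for the E2F site. Overlapping matches run together.
Brca1 to Nbr1 (chr11:101551956-101552148, minus strand): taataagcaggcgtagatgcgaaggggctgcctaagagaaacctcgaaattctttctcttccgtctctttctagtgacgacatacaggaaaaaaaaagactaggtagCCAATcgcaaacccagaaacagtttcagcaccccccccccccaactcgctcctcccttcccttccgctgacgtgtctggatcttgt
Chek2 to Hscb (chr5:110839778-110839978, plus strand): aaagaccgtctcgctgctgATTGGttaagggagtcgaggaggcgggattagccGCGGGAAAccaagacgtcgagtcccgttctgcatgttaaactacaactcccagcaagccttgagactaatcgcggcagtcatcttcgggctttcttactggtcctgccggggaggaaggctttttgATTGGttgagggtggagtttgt
Fancb to Mospd2 (chrX:164980376-164980591, plus strand): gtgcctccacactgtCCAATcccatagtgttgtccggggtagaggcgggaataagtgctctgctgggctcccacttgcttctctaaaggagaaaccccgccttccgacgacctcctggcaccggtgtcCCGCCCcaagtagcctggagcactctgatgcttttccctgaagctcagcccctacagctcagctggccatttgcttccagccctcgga
Lig4 to Abhd13 (chr8:9977687-9977706, minus strand): ttcatgctacggtagcccgt
Palb2 to Dctn5 (chr7:122132986-122133040, minus strand): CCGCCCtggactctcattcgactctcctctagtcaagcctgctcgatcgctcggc
Pms2 to Aimp2 (chr5:143909848-143909963, plus strand): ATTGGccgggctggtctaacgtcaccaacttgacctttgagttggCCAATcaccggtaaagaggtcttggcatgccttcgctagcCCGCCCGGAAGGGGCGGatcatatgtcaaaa
Rad51c to Tex14 (chr11:87404955-87405064, minus strand): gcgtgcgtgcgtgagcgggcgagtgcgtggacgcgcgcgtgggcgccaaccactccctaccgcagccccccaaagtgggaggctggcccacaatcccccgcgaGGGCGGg
Rad54l to Pomgnt1 (chr4:116123691-116123839, minus strand): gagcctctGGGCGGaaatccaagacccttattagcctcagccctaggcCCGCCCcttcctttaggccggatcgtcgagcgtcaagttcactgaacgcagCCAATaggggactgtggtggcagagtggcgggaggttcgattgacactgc
A CCAAT box was in 5 of the 8 stretches, a GC box in 5 and an E2F match in 1, that of Chek2. The stretches of Lig4, Palb2 and Rad51c, the 3 shortest, held no CCAAT box.

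Promoter windows, from 250 bases before to 50 after the start, were listed for 29 of the 35 members. Their starts can differ from the annotated first bases used for the pairs. The Rad51c window has an E2F match at 87404477 to 87404506, inside the gene, which is annotated to start at 87404954. The stretch of Rad51c given above thus lies outside that window. For Xrcc6 the match, at 82016312 to 82016341, is also inside the gene, annotated from 81987835. An E2F match was in 7 of them, or 24.1%, against 4.06% of 7860 promoters of expressed protein-coding genes and 2.48% of all 17491. E2F factors are known to switch on S phase genes. The CCAAT box was in 58.6% of member windows, against 39.9% of those of expressed genes and 39.0% of all. The GC box, in 69.0% against 68.4% of expressed genes, and the ETS site, in 20.7% against 21.2%, were near the share of expressed genes. The NRF1 site was in 1 member window, that of Lig4, or 3.45%, against 2.33% of expressed genes and 1.32% of all. The motif shares are descriptions of letters, with no test, and binding was not measured. The ratio of observed to expected CpG had a median of 0.896 in member windows and 0.796 in those of expressed genes.

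**Figure D4:**
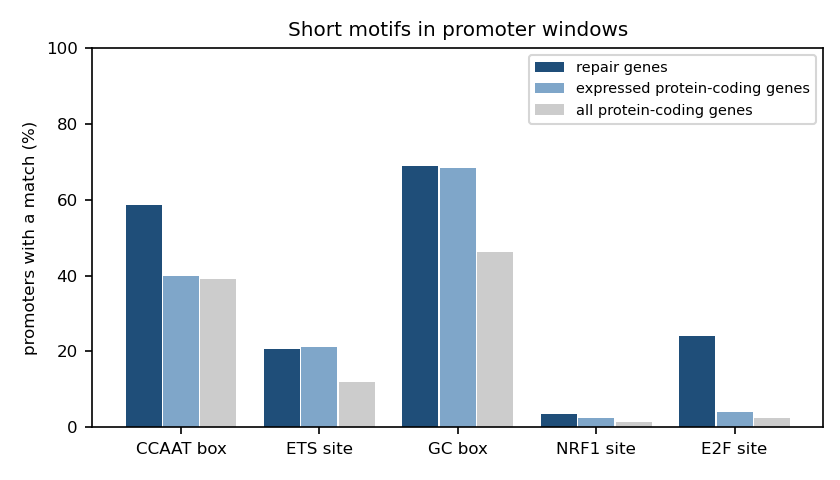
Percent of promoter windows with at least 1 match to each motif, for the 29 members with a window, the 7860 expressed protein-coding genes and all 17491 protein-coding genes. The E2F bars are 24.1%, 4.06% and 2.48%, while the bars for the GC box and ETS site are alike in members and expressed genes.

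The E2F matches of 6 of these genes are shown with 11 bases on each side, on the strand of the gene, with the match in capitals.
Bard1 (chr1:71103163-71103192, minus strand): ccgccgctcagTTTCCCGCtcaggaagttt
Brca2 (chr5:150522442-150522471, plus strand): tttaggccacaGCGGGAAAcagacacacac
Chek2 (chr5:110839820-110839849, plus strand): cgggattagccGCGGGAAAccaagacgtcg
Msh6 (chr17:87975054-87975083, plus strand): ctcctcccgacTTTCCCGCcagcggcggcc
Rad51c (chr11:87404477-87404506, minus strand): gtttccagcgcTTTCGCGCctcttgctcta
Xrcc6 (chr15:82016312-82016341, plus strand): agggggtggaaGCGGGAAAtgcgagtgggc
The levels of the 7 genes with an E2F match ran from 1.31 TPM for Rad51c to 41.27 TPM for Msh6 in replicate 1, and from 2.36 to 56.89 TPM in replicate 2. They thus spanned nearly the whole range of the members.

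Between the libraries no member stood 2-fold apart on the log2(TPM + 1) scale, which understates the change of low genes. Of the 10480 protein-coding genes that averaged at least 1 TPM, 0.544% stood 2-fold higher in replicate 1 and 2.58% in replicate 2. With counts scaled by TMM factors, which adjust for library composition, the member count was also 0, against 3.44% of the genes higher in replicate 1 and 2.4% in replicate 2. With 1 library on each side no test was possible. The CV of members ran from 0.411% for Rad52 to 45.8% for Lig4, with a median of 17.5%.

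On the TPM scale 6 members were higher in replicate 1 and 29 in replicate 2, while 71.7% of the 10480 genes were higher in replicate 2. The median difference, replicate 1 minus replicate 2, was -0.27 for the members and -0.23 for the 10480 genes. With counts scaled by TMM factors the median was -0.02 for both sets, and 16 members were higher in replicate 1 and 19 in replicate 2, against 48.5% of the 10480 genes higher in replicate 1. Taken as a group, the members followed the shift of all genes.

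**Figure D5:**
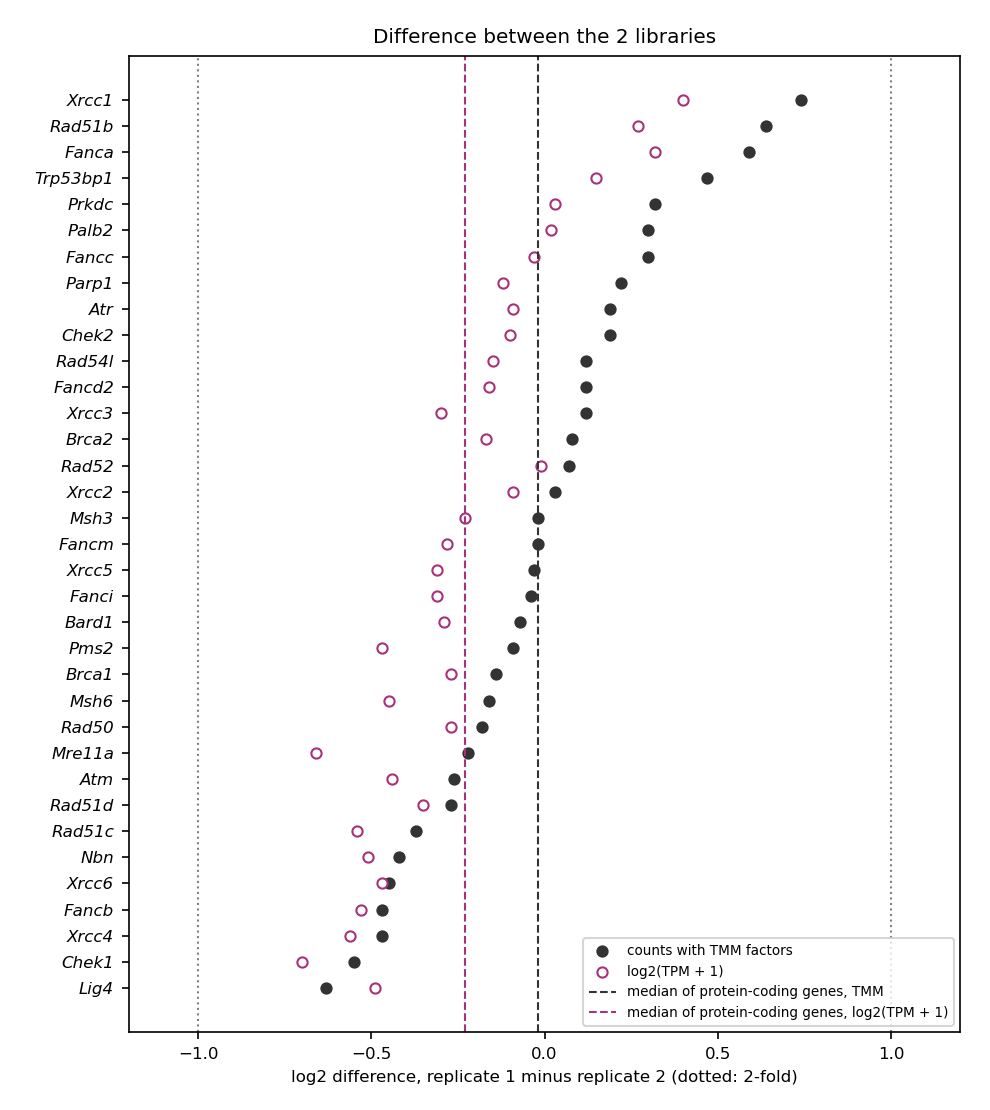
Difference between the libraries for each member, as log2 of replicate 1 minus replicate 2, from TMM-scaled counts (filled) and from TPM + 1 (open). Dashed lines are the medians of 10480 protein-coding genes, -0.02 and -0.23, and dotted lines mark 2-fold. All members lie inside 2-fold on both scales.

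Single genes lay on either side of that shift. Xrcc1 was furthest toward replicate 1, at 12.35 and 9.13 TPM, with a difference of 0.40 on the TPM scale and 0.74 with TMM factors. Fanca, at 6.20 and 4.76 TPM, differed by 0.32 and 0.59, and Rad51b, at 3.30 and 2.56 TPM, by 0.27 and 0.64. These 3 were higher in replicate 1 on both scales. So were Trp53bp1, at 0.15 and 0.47, Prkdc, at 0.03 and 0.32, and Palb2, at 0.02 and 0.3. Lig4, Chek1, Xrcc4, Fancb and Xrcc6 lay furthest toward replicate 2 with TMM factors, at -0.63, -0.55, -0.47, -0.47 and -0.45.

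Of the members, 7 were at least 1.5-fold higher in replicate 2 by TPM, against 25.7% of the 10480 genes, namely Rad51c, Mre11a, Nbn, Fancb, Xrcc4, Lig4 and Chek1. By TPM 0 members were 1.5-fold higher in replicate 1, against 5.53% of the genes. With TMM factors 3 were 1.5-fold higher in replicate 1 (Rad51b, Fanca and Xrcc1; 12.2% of the genes) and 1 in replicate 2 (Lig4; 9.79%). The deposited intervals did not overlap in 21 members, 2 of them higher in replicate 1 (Fanca and Xrcc1; 13.4% of the 10480 genes) and 19 higher in replicate 2 (50.6%). Of the feeder fibroblast markers 7 of 10 were higher in replicate 2, and their part in these differences was not tested.

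Most other genes of these pathways were also expressed, and those named below are the highest and lowest by the mean of both libraries, which single libraries may order otherwise. Of 17 further recombination and resection genes 16 were at 1 TPM or more in both libraries. The single-strand binding protein genes Rpa1 (37.33 and 74.26 TPM) and Rpa2 (20.18 and 26.02 TPM) and the nuclease gene Exo1 (12.77 and 19.50 TPM) led, and the helicase gene Wrn was lowest at 0.76 and 1.35 TPM. All 10 further Fanconi genes passed, with Usp1, Fance and Faap100 highest and Fancf lowest at 1.65 and 1.14 TPM. All 11 further end joining and pathway choice genes passed, led by Rif1, which acts with 53BP1 against resection, at 41.86 and 53.85 TPM. Mad2l2 stood at 10.39 and 7.68 TPM and Tdp2 at 4.49 and 8.12 TPM, and Aplf was lowest at 1.05 and 1.43 TPM.

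In base excision and single-strand break repair 15 of 18 further genes passed. The abasic site endonuclease gene Apex1 (43.97 and 31.97 TPM), the flap endonuclease gene Fen1 (21.05 and 25.97 TPM) and the ligase gene Lig1 (17.60 and 20.93 TPM) led, and the glycosylase gene Neil2 was lowest at 0.70 and 0.21 TPM. All 14 nucleotide excision genes passed, led by Ddb1 (84.40 and 115.13 TPM) and Rad23b, with Ercc6 lowest at 1.83 and 2.45 TPM. All 17 further checkpoint genes passed. H2afx, the histone variant that is phosphorylated around breaks, stood at 218.66 and 223.55 TPM, Tipin at 16.63 and 29.98 TPM and Topbp1, the activator of ATR, at 22.21 and 23.36 TPM, and Wee1 was lowest at 3.19 and 3.46 TPM. All 10 translesion genes passed, led by Rev1, Ube2b and Rev3l, with Primpol lowest at 1.29 and 1.31 TPM.

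Genes of meiotic recombination stood lower. Of 12 listed, 10 were in the tables and 4 of these were at 1 TPM or more in both libraries, with a median of 0.5 and 0.735 TPM. Mnd1 (5.41 and 7.38 TPM), Psmc3ip (4.0 and 7.54 TPM) and Hormad1 (4.74 and 5.86 TPM) led. Spo11, the enzyme that makes the meiotic breaks, was lowest at 0.01 and 0.03 TPM, with 3 and 5 counts.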

How the data were processed

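Total RNA of ES-E14 cells was sequenced in 2 libraries of 1 group. Per the file headers and the deposited file listing, the authors placed reads on mm10 with the GENCODE M4 annotation. No header or label names the aligner or the quantifier. The authors deposited expected counts, TPM, posterior mean TPM and FPKM per gene and transcript, a percent of gene output per transcript, and interval bounds on TPM, a signal whose confidence level is not given. The depth was 43163300 and 45573512 expected counts, and a gene's count limits its precision. The members and lists were chosen with earlier results of these data known.

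Biotypes and positions came from GENCODE M21 (GRCm38), in which 42462 of 43346 gene IDs matched, and promoters from RefSeq (GRCm38.p6). Expected counts were rounded to whole numbers and scaled with TMM factors (edgeR 4.0.16, prior count 2) or DESeq2 1.42.0 size factors in R 4.3.3, and the scaling was tested on simulated data. Differences between libraries used log2(TPM + 1). No test was made, since there is 1 group. All members could be named, with the 3 highest and the lowest of each other pathway list, up to 4 of each marker list, and the leading transcripts. The biotype, head-to-head and motif summaries, the counts at 1.5-fold and the alternative with protein-coding transcripts alone were chosen after seeing the data. Other limits, units, pseudocounts, filters and each library left out were tried. Spata22 and Brme1 were not used here. The neighbour of 1 member, a sequence beside it and 1 gene of another pathway list are not reported here.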

Additional observations from a re-analysis of the deposited data

How the results depend on the processing

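No paired analysis was possible because the series has 1 group. The number of members at 1 TPM or more in both libraries, 34, was 19 at a limit of 5 TPM. It was 35 with TPM rescaled to protein-coding genes, and 34 to 35 with a library left out. No member was 2-fold apart under any of the 6 settings run. Class levels, as log2 over the median of all members, moved beyond the spread as follows, and the cause was not tested. By the mean of log2(TPM + 1) they were -0.35 for homologous recombination, -0.13 for MRN, -0.33 for Fanconi, 0.92 for mismatch repair, -0.26 for end joining, 1.92 for single-strand break repair and 0.19 for checkpoint genes. By protein-coding transcripts alone, chosen after seeing the data, they were -0.44, 0.54, 0.10, -1.24, -0.45, 3.05 and 0.15 in that order. Posterior mean TPM gave -0.54 for homologous recombination. Without Lig4 end joining was at 0.50 and checkpoint genes at 0.03. With a library left out the levels ran from -0.63 to -0.57, 0.06 to 0.20, -0.12 to 0.05, 0.13 to 0.22, -1.01 to -0.79, 2.46 to 2.60 and 0.06 to 0.06 in the same order. With 1 group of 2 libraries no difference between conditions could be measured, and the spread may be technical. The lowest member counts were 109 for Xrcc4 in replicate 1 and 146 for Rad51b in replicate 2.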
